A study of Mus musculus with 10 samples.

Results

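The genes described here are 34 named mouse genes of the type I interferon response: the sensors Ddx58, Ifih1, Dhx58 and Zbp1, the factors that carry or limit the signal, and the antiviral effectors and other genes it induces. They were found by name among the 53656 genes of the deposited count tables, which held 33 of the 34. Ifi206 had no row under that symbol and gets no value of its own here. All 33 passed the filter on low counts, which kept 14214 genes for testing.

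Type I interferons (IFN-α and IFN-β) bind the receptor IFNAR1/IFNAR2, whose kinases JAK1 and TYK2 phosphorylate transcription factors, STAT2 among them. With IRF9 these form a complex that binds the interferon-stimulated response element in the promoters of the response genes. Nucleic acid sensors lie upstream, because their signals lead to interferon production, and are themselves interferon-induced, as are IRF7, which amplifies the response, and USP18, which damps it. In T cells the same genes report on interferon in the surroundings, which can alter proliferation, survival and helper differentiation.

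The libraries came from SMARTA T cell receptor transgenic CD4 T cells, which recognise the GP61 peptide, in a study of the nuclear factor TOX in tumour-reactive CD4 T cells. Naive cells had been transferred into cytoxan-treated B6 mice bearing B16-GP61 melanoma, and were sorted from the tumour-draining lymph node 11 days after transfer. The 6 KO libraries were TOX KO cells sorted as CD4+, Ly5.1+, Ly5.2- and low for PD1, LAG3 and CD39. The 4 WT libraries were TOX WT cells sorted as CD4+, Ly5.1+, Ly5.2+ and high for PD1, LAG3 and CD39. Genotype, sort gate and congenic marker therefore differed together and cannot be told apart in any comparison below. The labels do not say how TOX was removed, the age of the mice, or which mouse gave which library, so a p-value here weighs a difference against library-to-library spread alone, some of which may be technical.

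Depth was 31939816 to 55784453 counts per library. Tox itself was 31.0 ± 20.8 CPM (counts scaled by library size; SD, n = 6) in KO and 236 ± 88.0 (n = 4) in WT, which gave a log2 change of -2.93 (edgeR adjusted p = 0.010) with no overlap. The summed level of 12 T cell markers was 24960 to 38610 CPM in KO and 12377 to 26695 in WT, so T cell transcripts were abundant in every library. The summed markers of B cells, of plasma cells, and of macrophages and monocytes were nonetheless far higher in WT. The sum of 12 B cell markers was 292 to 2081 CPM in KO and 15866 to 41235 in WT. That of 14 macrophage and monocyte markers was 5.28 to 211 and 1504 to 7483, and that of 10 plasma cell markers 1157 to 1885 and 5570 to 93256. In WT most of the plasma cell sum was the immunoglobulin genes Igkc, Ighg2c and Ighm. Of the 9 plasma cell markers tested, 7 had negative fold changes. The other 2 were Xbp1, at means of 358 CPM in KO and 222 in WT, and Irf4, at 138 and 137. In WT replicates 2 to 4 the B cell sum, at 41235, 27574 and 29889 CPM, exceeded the T cell sum, at 20304, 12377 and 17398. Some other marker sums overlapped or went the other way. That of CD8 T and NK cells was 211 to 321 CPM in KO and 105 to 185 in WT, though 5 of its 6 genes had negative log2 fold changes. Sums overlapped for conventional dendritic cells (117 to 213 and 132 to 539) and neutrophils (0.0212 to 66.0 and 3.33 to 513). They also overlapped for melanoma (2.50 to 6.95 and 0 to 8.81) and for stroma and endothelium (167 to 374 and 82.1 to 358). In bulk RNA, fewer cells of a type and less RNA per cell cannot be told apart, and the part these cells had in the interferon gene values below was not tested.

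Promoter sequence is shown for 4 members because it carries the element through which the response is known to run. RefSeq promoter windows of GRCm38.p6, from 250 bases before to 50 after a start site, were at hand for 26 of the 34 members, in 32 windows. The core of the interferon-stimulated response element, GAAA, any 2 bases and GAAA, was sought on both strands, overlapping copies included. It lay in 19 of the 32 member windows (59.4%), against 3.44% of all 32851 windows. The gamma-activated site, TTC, any 3 bases and GAA, lay in 4 of the 32 (12.5%), against 8.3% of all. The 3 members that hold the core with the smallest p-values for the KO and WT comparison are printed, and Oasl1, which passed the test without holding it. Each sequence is the 250 bases before the start, 5′ to 3′ on the gene's strand, with the core in capitals.
Trim30a, chr7:104465194-104465443, minus strand: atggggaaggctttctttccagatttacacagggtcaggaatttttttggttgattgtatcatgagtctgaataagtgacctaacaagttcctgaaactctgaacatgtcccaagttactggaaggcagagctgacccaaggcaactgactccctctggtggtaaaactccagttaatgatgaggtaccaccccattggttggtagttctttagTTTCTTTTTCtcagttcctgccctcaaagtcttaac
Oas1a, chr5:120907526-120907775, minus strand: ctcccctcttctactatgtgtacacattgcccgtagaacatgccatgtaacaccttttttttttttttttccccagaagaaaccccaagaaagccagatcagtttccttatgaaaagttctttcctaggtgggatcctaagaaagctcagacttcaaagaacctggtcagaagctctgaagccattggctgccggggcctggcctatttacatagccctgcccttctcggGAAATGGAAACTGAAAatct
Ifi213, chr1:173599273-173599522, minus strand: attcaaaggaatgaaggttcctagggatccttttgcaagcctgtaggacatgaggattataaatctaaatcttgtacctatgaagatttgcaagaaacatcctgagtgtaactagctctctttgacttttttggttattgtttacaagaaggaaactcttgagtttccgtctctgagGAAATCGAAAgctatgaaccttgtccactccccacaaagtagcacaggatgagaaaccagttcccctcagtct
Oasl1, chr5:114922990-114923239, plus strand: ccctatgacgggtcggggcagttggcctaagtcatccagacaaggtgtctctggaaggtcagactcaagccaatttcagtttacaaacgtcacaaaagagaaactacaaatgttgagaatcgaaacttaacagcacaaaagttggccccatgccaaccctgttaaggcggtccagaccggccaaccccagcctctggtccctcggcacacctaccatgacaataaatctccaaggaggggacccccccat

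In Trim30a the core lay on the opposite strand, beginning 36 bases before the start. Oas1a held 2 overlapping copies, beginning 20 and 14 bases before its start, and Ifi213 held 1, beginning 73 bases before. The absence of these letters from the Oasl1 window says only that they are not in that window. Parp14, the other member that passed the test, had no window in the table.

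No member was higher in KO by the edgeR quasi-likelihood test across all genes (adjusted p under 0.05), and 2 were lower, the 2′-5′-oligoadenylate synthetase-like gene Oasl1 and the mono-ADP-ribosyltransferase gene Parp14. These 2 are 6.06% of the 33, while of all genes tested 2.7% were called lower, 0.429% higher and 3.13% in either direction. At an unadjusted p under 0.05, 9 members were lower (27.3%) and 0 higher, where 10.8% and 7.15% of all genes were. DESeq2 called 6 members lower and 0 higher, where it called 7.22% of all genes lower and 4.43% higher. limma-voom called 3 members lower and 0 higher, where it called 4.78% of all genes lower and 1.44% higher. With 1 library left out, the edgeR count was 7 lower without WT 1, where 7.9% of genes were lower, and 1 without WT 3, where 2.8% were lower and 2.09% higher. It was 0 without WT 2, WT 4 or any KO library, where 0.977% to 2.35% of genes were lower and 0.0683% to 0.304% higher. Log2 fold changes, always KO minus WT, were negative for 29 of 33 members (87.9%), against 54.3% of all genes. Their median was -0.73, beside -0.12 over all genes. Every KO library lay below every WT library for 3 members (9.09%; Oasl1, Parp14 and Oas1a), and for 6.31% of all genes. Without WT 3 that count was 6, and 9.92% of genes lay so. Without WT 1 it was 14, and 17.9% of the 15197 genes tested there lay so.

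The direction of the list held under each scaling of the libraries that was tried, with 28 to 33 of 33 fold changes negative. Its size and the calls did not hold. The 33 came under scaling to T cell receptor genes, which also lowered the median of all genes. Among fits other than scalings, 22 of 33 were negative under limma-voom and 26 of 33 with the library set as a term. Without WT 1, 30 of 33 were negative. In library numbers 1 to 3 alone, where WT 1 was the only WT library, 13 of 31 were negative. Without scaling factors, and with TMM factors computed without immunoglobulin genes, 0 members were called: the edgeR adjusted p of Oasl1 was 0.063 and 0.074, and that of Parp14 0.056 and 0.059. Of all genes 2.6% and 1.57% were called lower there. Scaling to 8 genes of the T cell receptor complex moved the median of all genes to -0.75 and that of the members to -1.42. Under it 9 members were lower (Dhx58, Zbp1, Oas1a, Oasl1, Isg20, Trim30a, Parp14, Rtp4 and Xaf1) and 0 higher. All genes then split into 16 higher and 1387 lower (9.76%), where they split into 61 and 384 under the scaling used throughout.

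**Figure D1:**
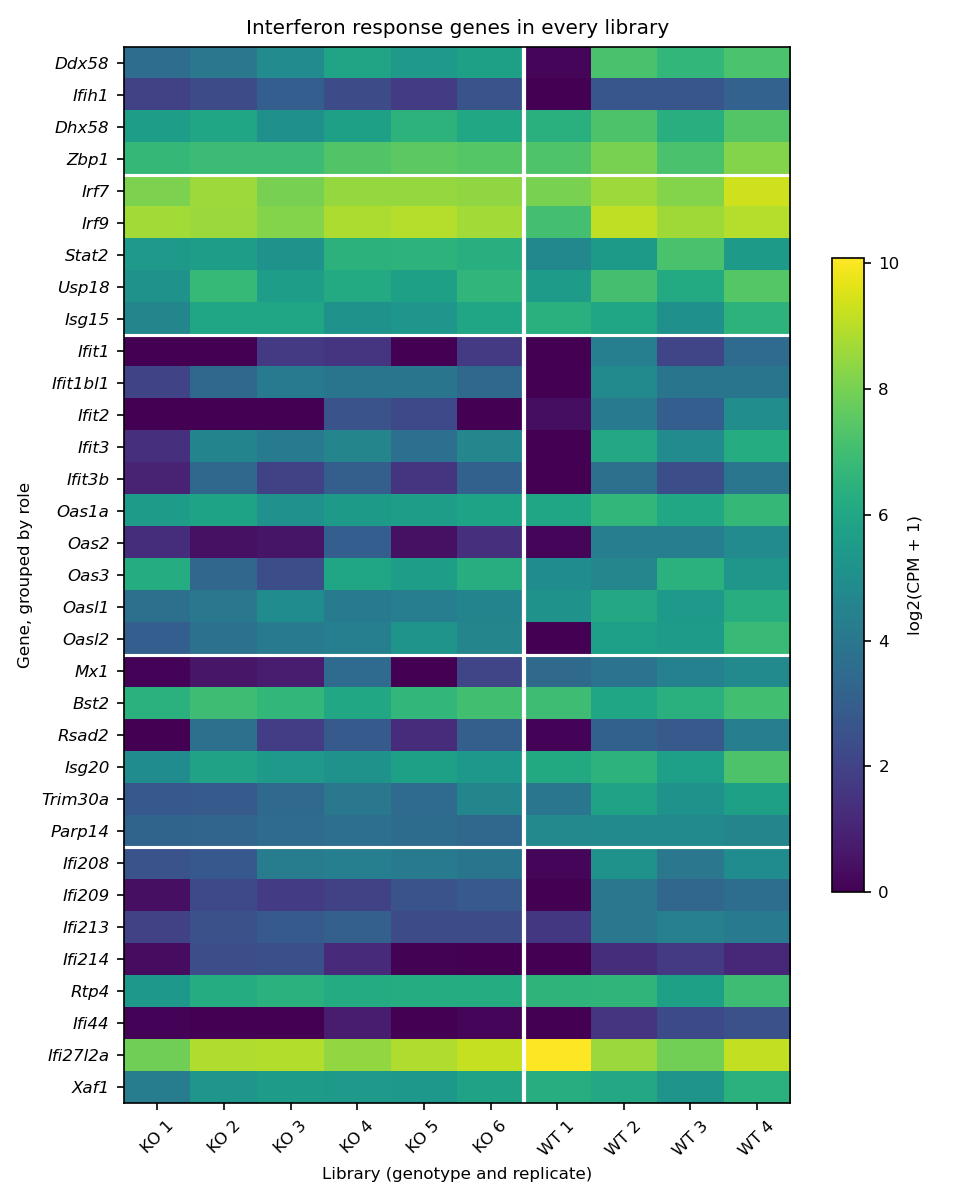
Level of the 33 interferon response genes, as log2(CPM + 1) on the colour scale, in each of the 6 KO and 4 WT libraries (columns), with the genes in rows grouped by role from sensors at the top. WT replicate 1 is dark for the 14 members that are under 1 CPM there and above 1 CPM in each other WT library, and is brightest for Ifi27l2a at 1081 CPM.

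Among the 4 sensors none passed the edgeR test, 1 was lower at an unadjusted p under 0.05, and DESeq2 and limma-voom called none. All 4 fold changes were negative, with a median of -0.82. Zbp1 (chr2:173206612-173218923), which senses Z-form nucleic acid, was the most abundant at 157, 263, 143 and 299 CPM in WT replicates 1 to 4, and at 105 to 187 (median 140.4) in KO. Its groups overlapped, because WT 1 and WT 3 lay within the KO range (log2 change -0.58, SE 0.29, edgeR adjusted p = 0.33). Dhx58 (chr11:100694884-100704271) encodes LGP2, the RIG-I relative that regulates the others. It was at 82.4, 153, 79.9 and 168 CPM in WT and at 32.0 to 91.2 (median 55.6) in KO, so that 5 of 6 KO libraries lay below each WT library (log2 change -1.07, SE 0.35, edgeR adjusted p = 0.14).

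Ddx58 (chr4:40203773-40239828), which encodes the RNA sensor RIG-I, split the WT libraries. WT replicates 2 to 4 were at 146, 102 and 147 CPM, WT 1 at 0.145, and KO at 11.1 to 57.5 (median 34.7). The log2 change of -1.53 (SE 1.04, edgeR adjusted p = 0.47) therefore rested on a WT group that spanned the KO range on both sides. Ifih1, which encodes the RNA sensor MDA5, was low throughout, at 0 to 8.06 CPM in WT and 2.51 to 6.98 in KO.

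Of the role groups, the transcription factors and feedback genes had the median edgeR fold change nearest to 0, at -0.29. Under limma-voom their median was -0.20, and that of the sensors was nearer to 0, at -0.056. None of the 5 passed the edgeR test or had an unadjusted p under 0.05, and DESeq2 and limma-voom called none. Irf9 (chr14:55603571-55610030), the DNA-binding partner of STAT2, was at 133, 552, 399 and 491 CPM in WT and at 298 to 496 (median 406) in KO. Its means were 408 ± 68.2 CPM (SD, n = 6) in KO and 394 ± 185 (n = 4) in WT, which differed by less than the spread within either group. Irf7 (chr7:141262706-141266481) was at 263, 388, 292 and 657 CPM in WT and at 254 to 387 (median 346) in KO, so that WT 1 and WT 3 lay within the KO range and WT 2 at its upper edge.

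Usp18 (chr6:121245906-121270917), the protease that removes ISG15 and blocks the receptor, was at 47.1, 137, 70.0 and 172 CPM in WT and at 35.1 to 106 (median 61.8) in KO. The groups overlapped (log2 change -0.63, SE 0.44, edgeR adjusted p = 0.48). Isg15, the ubiquitin-like modifier itself, was 46.5 ± 16.4 CPM in KO and 66.5 ± 26.3 in WT. Stat2 had nearly equal means, 64.2 ± 25.1 CPM in KO and 64.7 ± 54.8 in WT, with WT 3 at 146 far above the other WT libraries at 25.1 to 44.4.

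The IFIT and OAS effectors bind foreign RNA or make the 2′-5′ oligoadenylates that activate RNase L. By edgeR they held the lowest median fold change of the role groups, at -1.40, with 9 of 10 negative. Under limma-voom their median was -0.64, with 6 of 10 negative, and that of the 6 other effectors was lower, at -1.18. Of the 10, Oasl1 alone passed the edgeR test. DESeq2 called 3 lower, Oasl1, Oas2 (adjusted p = 0.043) and Oas1a (adjusted p = 0.040), and limma-voom called Oasl1. Oasl1 (chr5:114923240-114937915) was at 35.6, 66.7, 41.2 and 76.7 CPM in WT and at 12.1 to 29.1 (median 18.2) in KO. The groups did not overlap, and the log2 change was -1.52 (SE 0.36, edgeR adjusted p = 0.047). The call stands near the threshold: it was kept in 2 of 10 fits that left out 1 library (without WT 1 and without WT 3), and the adjusted p reached 0.233 in the others.

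Oas1a (chr5:120896256-120907521), a synthetase gene, also separated the groups, with WT at 60.6, 101, 63.2 and 104 CPM and KO at 33.5 to 57.3 (median 46.8). It did not pass the edgeR test (log2 change -0.79, SE 0.28, edgeR adjusted p = 0.17). Of the 50-base windows of its transcript, 57.6% occur in transcripts of other genes, mostly Oas1g, and reads that match several places were not counted, so its level is uncertain. Oas3 (chr5:120753098-120777661) went with neither genotype. It was at 28.9, 24.6, 85.2 and 39.3 CPM in WT and spread from 4.34 to 77.01 (median 54.8) in KO, and its fold change of 0.04 turned negative under size factors by relative log expression and under the T cell receptor scaling, where it was -0.74 beside a median of -0.75 over all genes.

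The other 7 IFIT and OAS genes shared a pattern in which WT 1 was at or near 0. Oasl2 was at 0 CPM in WT 1, at 46.7 to 113 in WT 2 to 4 and at 7.03 to 36.1 in KO. Ifit3 was at 0, 27.9 to 74.5 and 1.62 to 24.1 CPM in the same order. Oas2 was at 0.0967, 18.8 to 28.0 and 0.374 to 7.16 CPM.

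For these 3 genes every KO library lay between WT 1 and the other WT libraries, and the edgeR adjusted p was 0.55, 0.61 and 0.21. Ifit1 and Ifit2 were nearly unread in KO: Ifit1 had 0 counts in 3 KO libraries and at most 2.32 CPM, and Ifit2 had 0 counts in 4 and at most 4.97 CPM, where 3 counts correspond to 0.0554 to 0.0856 CPM. In WT 2 to 4 they reached 3.35 to 19.5 and 7.03 to 30.0 CPM. Ifit1bl1 and Ifit3b overlapped between the genotypes even without WT 1. Ifit3 and Ifit3b are near copies (51.2% and 45% of their 50-base windows are shared), so counts of either are uncertain.

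**Figure D2:**
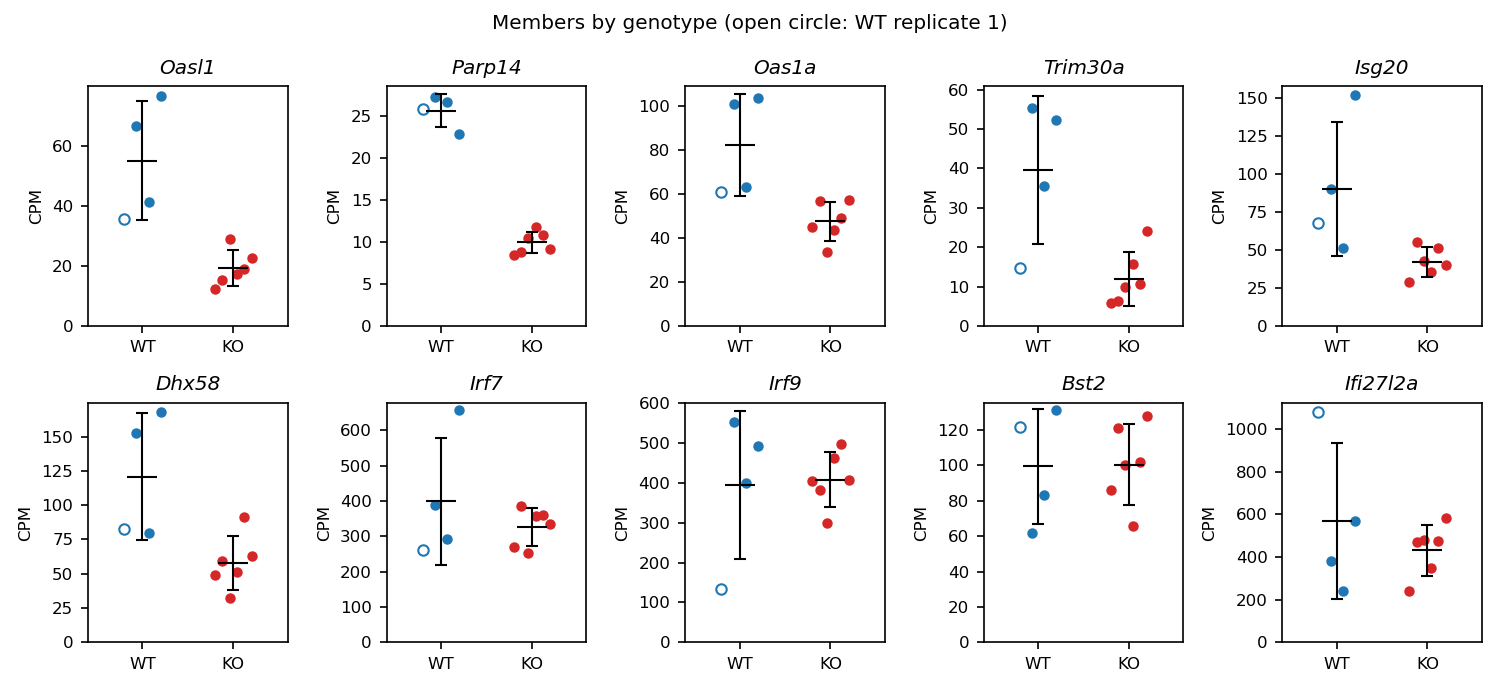
CPM of 10 interferon response genes by genotype, with blue points for the 4 WT libraries, red points for the 6 KO libraries, an open circle for WT replicate 1, and a bar for the mean with its SD. Oasl1, Parp14 and Oas1a separate without overlap, while Irf7, Irf9, Bst2 and Ifi27l2a overlap between the groups.

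Among the 6 other effectors, Parp14 passed the edgeR test and 5 of 6 fold changes were negative, with a median of -1.23. DESeq2 called 3 lower, Parp14, Trim30a (adjusted p = 0.015) and Isg20 (adjusted p = 0.027), and limma-voom called Parp14 and Mx1 (adjusted p = 0.042). Parp14 (chr16:35832874-35871544), which encodes an ADP-ribosyltransferase, was the steadiest member within each group. It was at 25.8, 27.2, 26.7 and 22.8 CPM in WT and at 8.45 to 11.7 (median 9.85) in KO. The means, 25.6 ± 1.96 and 9.94 ± 1.30 CPM, differed by more than the spread within either group (log2 change -1.37, SE 0.30, edgeR adjusted p = 0.037). WT 1, which stood apart for many members, lay among the other WT libraries here. The fold change stayed at -1.36 to -1.25 when any 1 library was left out, but the adjusted p was under 0.05 only without WT 1 (0.017) and reached 0.143 otherwise.

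Trim30a (chr7:104409025-104465193), an interferon-induced TRIM protein gene, was at 14.6, 55.4, 35.6 and 52.4 CPM in WT and at 5.87 to 24.0 (median 10.2) in KO, where only WT 1 lay within the KO range (log2 change -1.71, SE 0.52, edgeR adjusted p = 0.11). Isg20 (chr7:78913424-78920396), an antiviral exonuclease gene, was at 68.0, 90.6, 51.1 and 152 CPM in WT and at 28.9 to 55.1 (median 41.6) in KO. Only WT 3 overlapped KO (log2 change -1.10, SE 0.34, edgeR adjusted p = 0.13).

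Bst2 (chr8:71534255-71537456), which encodes tetherin, had nearly equal means. It was at 122, 61.9, 83.4 and 131 CPM in WT and at 65.7 to 128 (median 101) in KO, with means of 99.5 ± 32.5 and 100.5 ± 22.9 CPM. Its fold change of 0.01 (SE 0.30) turned negative under size factors by relative log expression and under the T cell receptor scaling, to -0.61 in the latter. Mx1, the dynamin-like antiviral GTPase gene, was at 10.1 to 27.2 CPM in WT and at 0 to 10.5 in KO, and 5 of 6 KO libraries lay below each WT library. Rsad2, which encodes viperin, overlapped fully (0.0725 to 18.9 CPM in WT and 0 to 12.2 in KO).

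Of the 8 IFI200 and other induced genes none passed the edgeR test, 2 were lower at an unadjusted p under 0.05, and DESeq2 and limma-voom called none. Their fold changes were negative for 7 of 8, with a median of -0.65. Ifi27l2a (chr12:103442167-103443680), a small interferon-induced membrane protein gene, was the most abundant member both in CPM and per length, at 935 CPM per kilobase of exon in KO and 1229 in WT. It was at 1081, 380.3, 243 and 571 CPM in WT and at 239 to 582 (median 472) in KO. WT 1 was the highest library, and without it the fold change went from -0.39 to 0.12.

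Rtp4 (chr16:23520291-23614222), a receptor transport protein gene, was at 92.5, 95.9, 52.7 and 121 CPM in WT and at 40.0 to 85.9 (median 74.2) in KO. Of its exon bases, 13.9% overlap another gene, whose reads cannot be told apart. Xaf1 (chr11:72301629-72313733), a proapoptotic gene, was at 77.6, 66.0, 36.0 and 84.6 CPM in WT and at 17.6 to 55.5 (median 41.7) in KO. In both WT 3 lay within the KO range, and the edgeR adjusted p was 0.57 and 0.33.

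The IFI200 genes encode nucleic acid-binding PYHIN proteins and lie in a cluster on chromosome 1. Ifi213 was at 15.5 to 19.7 CPM in WT 2 to 4, 2.08 in WT 1 and 2.87 to 7.61 in KO, and Ifi209 at 8.998 to 15.2, 0.0242 and 0.340 to 6.06. Ifi208 overlapped between KO and WT 2 to 4 (4.94 to 19.1 and 15.01 to 34.9 CPM), and Ifi214 was under 5 CPM in every library. These genes share 24.5% to 35.2% of their 50-base windows with others, so their levels are uncertain. Ifi44 had 38 counts over all 6 KO libraries and 376 over WT, none of them in WT 1. The row named RP23-85A8.1, on chr1:173468485-173491041, begins where a later annotation places Ifi206. It was at 1.74 ± 1.22 CPM in KO and 7.51 ± 4.86 in WT (log2 change -2.11, SE 0.73, edgeR adjusted p = 0.16).

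WT replicate 1 stood apart for the members. It held 14 of 33 (42.4%) under 1 CPM, 7 of them at 0, where 31.7% of all genes tested were under 1 CPM. For 6 members (18.2%), against 6.09% of genes, it was under 1 CPM while each of the other 9 libraries had at least 1. These 14 members had a median exon length of 4393 bases, and the other 19 of 3529. WT 1 was the lowest of all libraries for 12 members and the highest for 1, Ifi27l2a, counts not made over all genes. It also had the fewest genes detected, 14365, against 19101 to 19775 in the other WT libraries.

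Without WT 1, 7 members were lower in KO (21.2%) and 0 higher, while 7.9% of 15197 genes were lower and 2.92% higher. The WT libraries left are numbered 5 to 7, and KO 1 to 3 are numbered 1 to 3. Library number and genotype thus differ in part together in that fit. The 7 were Ddx58, Oas2, Oasl1, Oasl2, Trim30a, Parp14 and Ifi213, and the members' median was -1.05, beside -0.13 over all genes. For Ddx58, Oasl2 and Trim30a all of KO 1 to 3 also lay below all of KO 4 to 6. Without WT 1, Ddx58 had a log2 change of -1.94 (SE 0.49, edgeR adjusted p = 0.035), Trim30a of -1.98 (SE 0.46, adjusted p = 0.026) and Ifi213 of -1.80 (SE 0.39, adjusted p = 0.020). Every KO library lay below each of WT 2 to 4 for 14 members (42.4%) and for 16% of the 14214 genes tested with all libraries. WT 4 was the highest of all 10 libraries for 21 of 33 members, a count not made over all genes. It also held the highest plasma cell sum and the highest macrophage and monocyte sum. The part of those cells in its interferon gene levels was not tested.

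**Figure D3:**
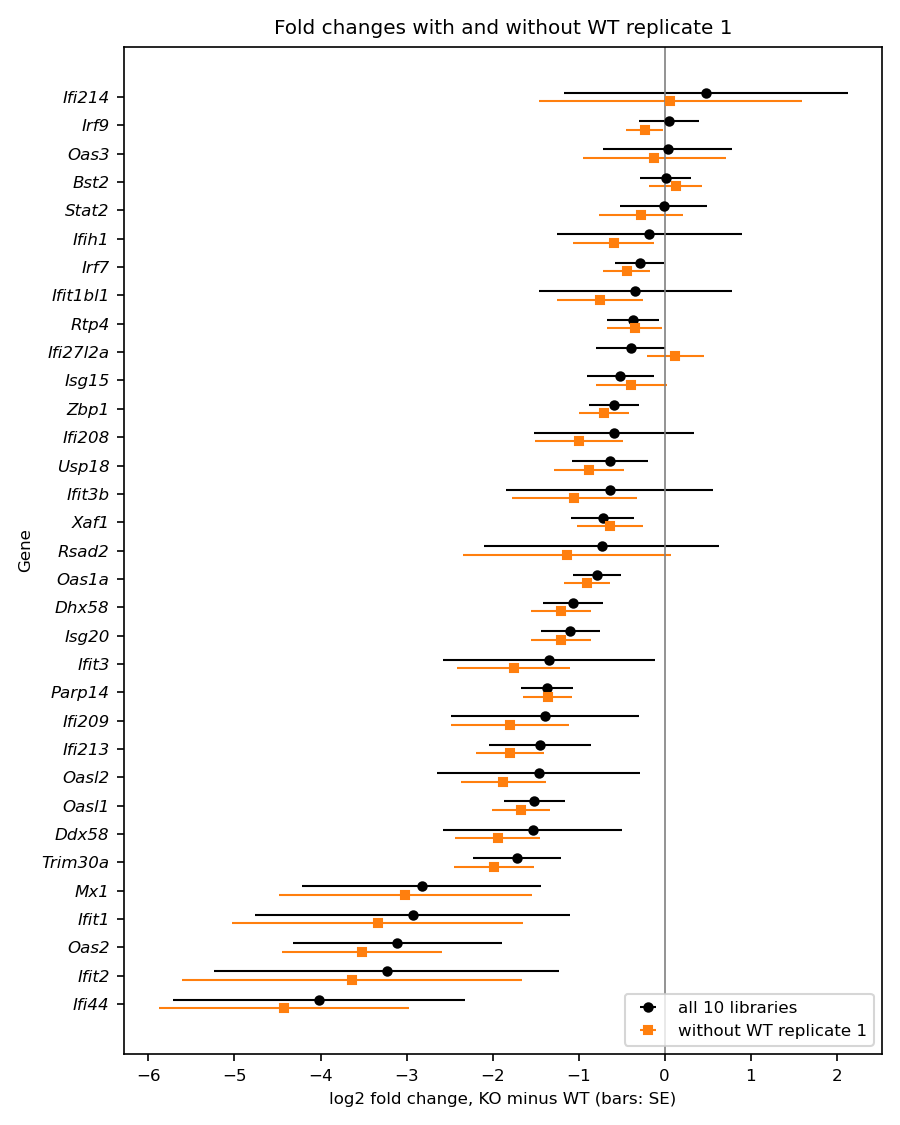
Log2 fold change (KO minus WT, x axis) of each of the 33 members, with bars for the SE, from all 10 libraries (black circles) and without WT replicate 1 (orange squares). With all libraries 29 of 33 lie below 0, and without WT 1 the median moves from -0.73 to -1.05 with shorter bars for genes such as Ddx58 and Oasl2.

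The KO libraries also differed among themselves along their library numbers, which were 1 to 3 for KO replicates 1 to 3 and 4, 6 and 8 for replicates 4 to 6. For 6 members (Ddx58, Zbp1, Irf9, Stat2, Oasl2 and Trim30a; 18.2%) all of KO 1 to 3 lay below all of KO 4 to 6, as for 14.7% of genes. For 0 members they lay above, where 17.2% of genes did. KO 1 was the lowest KO library for 19 of 33 members, a count not made over all genes. Within library numbers 4 to 8 alone, 3 KO and 3 WT libraries, the members' median was -0.87, 2 were lower (Ddx58 and Oasl1) and 0 higher, while 7.18% of genes were lower and 0.842% higher. Library numbers 1 to 3 held only WT 1 as a WT library, and there the members' median was 0.46, beside 0.37 over all genes.

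The interferon genes themselves were almost unread. Of 21 interferon ligand genes, among them Ifnb1 and the Ifna genes, 19 had 0 counts in all 10 libraries. The only one tested was Ifng, the type II interferon of TH1 cells, at 35.7, 41.6, 11.5 and 76.8 CPM in WT and at 0.0212 to 5.28 (median 3.33) in KO. Its groups did not overlap, and its log2 change was -3.85 (SE 1.07, edgeR adjusted p = 0.089). DESeq2 and limma-voom called it lower, as did edgeR in library numbers 4 to 8 alone and under the T cell receptor scaling.

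None of the 11 receptor and signal transducer genes tested passed. At an unadjusted p under 0.05, 2 were higher and 1 lower, where 7.15% and 10.8% of all genes were. DESeq2 called 2 higher and limma-voom 1, where they called 4.43% and 1.44% of all genes higher. Ifnar2 was at 58.7, 7.42, 50.6 and 8.53 CPM in WT and at 36.9 to 172 (median 104) in KO (log2 change 1.80, SE 0.69, edgeR adjusted p = 0.20). Ifnar1 was at 0.193, 62.9, 205 and 74.8 CPM in WT and at 78.0 to 223 (median 149) in KO. Its log2 change was 0.85 and that of Jak1 0.59. Under the T cell receptor scaling both turned negative, to -0.12 and -0.23, and remained above the median of all genes, -0.75. Tyk2 was at 54.1, 61.9, 272 and 62.4 CPM in WT and at 97.3 to 356 (median 223) in KO, so that WT 3 resembled KO.

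Irf1 and Irf3 separated the groups in the other direction from the members. Irf1, a transcription factor gene induced by both types of interferon, was at 468, 194, 438 and 235 CPM in WT and at 643 to 855 (median 710.0) in KO (log2 change 1.11, SE 0.28, edgeR adjusted p = 0.067). Irf3, which acts downstream of the sensors, was at 217, 99.6, 254 and 105 CPM in WT and at 308 to 445 (median 400.0) in KO (log2 change 1.22, SE 0.31, edgeR adjusted p = 0.067). Every KO library lay above every WT library for both, as for 2.59% of all genes. Neither passed the edgeR test with all libraries. DESeq2 (adjusted p = 0.0018 and 0.0025) and limma-voom (both 0.020) called both higher, as did edgeR without WT 1 (0.018 and 0.031). Under the T cell receptor scaling their log2 changes were 0.45 and 0.53 (edgeR adjusted p = 0.45 and 0.44).

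Of 13 sensor and adaptor genes outside the members, 1 was higher in KO and 2 were lower by edgeR, where 0.429% and 2.7% of all genes were. DESeq2 and limma-voom each called 3 higher and 3 lower, adding Irf3, Myd88 and Aim2. Of all genes, DESeq2 called 4.43% higher and 7.22% lower, and limma-voom 1.44% and 4.78%. Ikbke, an IRF3 kinase gene, rose from 158, 209.9, 265 and 202 CPM in WT to 359.6 to 809 (median 556) in KO (log2 change 1.48, SE 0.29, edgeR adjusted p = 0.021). The Ikbke call was lost under the T cell receptor scaling (log2 change 0.79, adjusted p = 0.243) and without KO 1, WT 2 or WT 4 (adjusted p up to 0.102). Irf5 fell from 237, 219, 313 and 224 CPM in WT to 35.6 to 78.8 (median 49.7) in KO (log2 change -2.24, SE 0.27, edgeR adjusted p = 0.0023). Unc93b1, the chaperone gene of the endosomal Toll-like receptors, fell from 332, 391, 1112 and 479.5 CPM to 151 to 221 (median 183; log2 change -1.62, SE 0.33, edgeR adjusted p = 0.026). Irf5 was called in all 10 fits that left out 1 library, and Unc93b1 in 2 of them, without WT 1 and without WT 3. Irf5 and Unc93b1 are also expressed in B cells and macrophages, whose markers were higher in WT, and the part of those cells was not tested.

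**Figure D4:**
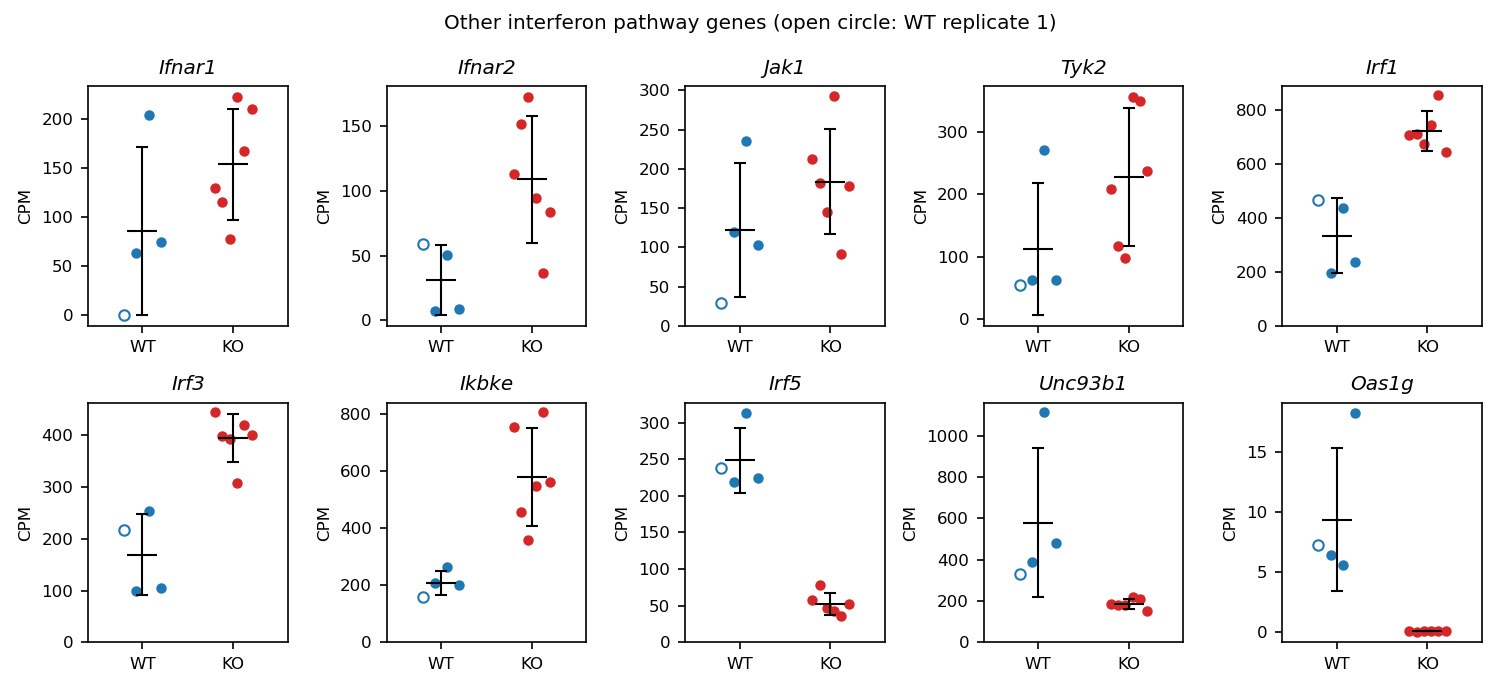
CPM of 10 other interferon pathway genes by genotype, drawn with blue points for the 4 WT libraries, red points for the 6 KO libraries, an open circle for WT replicate 1, and a bar for the mean with its SD. Irf1, Irf3 and Ikbke are higher in every KO library than in any WT library, and Irf5, Unc93b1 and Oas1g are lower, while Tyk2 is at 272 CPM in WT 3 and at 54.1 to 62.4 in the other WT libraries.

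Of 58 other interferon-stimulated genes tested, 4 were lower in KO and 0 higher by edgeR, where 2.7% and 0.429% of all genes were. At an unadjusted p under 0.05, 12 were lower and 3 higher, where 10.8% and 7.15% of all genes were. DESeq2 called 7 lower and 0 higher, where it called 7.22% and 4.43% of all genes. For limma-voom the counts were 5 and 1, where it called 4.78% and 1.44% of all genes. The 4 were Oas1g, Phf11c, Ifitm3 and Ube2l6. Oas1g, the synthetase gene that shares sequence with Oas1a, was at 7.27, 6.39, 5.59 and 18.3 CPM in WT and at 0.0212 to 0.0761 in KO, with 11 counts over all 6 KO libraries (edgeR adjusted p = 0.00093). Ifitm3, which encodes a membrane protein that blocks viral entry, was at 127, 57.1, 57.9 and 296 CPM in WT and at 2.55 to 12.9 (median 6.47) in KO (log2 change -4.16, SE 0.61, edgeR adjusted p = 0.0060).

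Phf11c had 2 counts over the 6 KO libraries and was at 2.05 to 10.3 CPM in WT (edgeR adjusted p = 0.0031). Ube2l6, the conjugating enzyme gene for ISG15, fell from 131, 112, 76.7 and 167 CPM in WT to 26.7 to 55.2 (median 44.9) in KO (log2 change -1.49, SE 0.30, edgeR adjusted p = 0.026). With 1 library left out, Oas1g, Phf11c and Ifitm3 were called in 10 of 10 fits and Ube2l6 in 4, being lost without WT 2, WT 4 or KO 1, 2, 3 or 5 (adjusted p up to 0.134). The median fold change of these 58 genes was -0.60, with 39 negative, beside a median of -0.12 and 54.3% negative over all genes. None of the 11 negative regulators tested passed. At an unadjusted p under 0.05, 2 were higher and 1 lower, where 7.15% and 10.8% of all genes were. DESeq2 called 1 higher and limma-voom 0, where they called 4.43% and 1.44% of all genes higher.

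Plasmacytoid dendritic cells are known as a main source of type I interferon. The sum of 12 of their markers was 92.6 to 346 CPM in KO and 1147 to 1803 in WT. In WT most of it was Ly6d and Irf8, which some B cells also express. Pacsin1 went the other way, at 40.7 to 95.1 CPM in KO and 7.87 to 52.7 in WT (log2 change 1.47, edgeR adjusted p = 0.20). Their defining marker Siglech was at 18.9, 11.2 and 15.1 CPM in WT 2 to 4, at 0 in WT 1, and at 0 to 0.726 in KO. Runx2 and Cox6a2, by contrast, were at 24.1 and 8.12 CPM in WT 1 and at 1.45 to 5.04 and 1.20 to 1.51 in WT 2 to 4. Of the 12 markers, 6 were lower in WT 1 than in each other WT library. B cell markers were also lower in WT 1 than in each other WT library, for 12 of 12, and Cd74 alone gave 11604 of its sum of 15866 CPM. The mean log2 CPM of the 12 was 5.97 in WT 1, 8.79 to 9.36 in WT 2 to 4 and 1.55 to 3.71 in KO. The markers of plasma cells, at 6.90 in WT 1 and 8.75 to 10.05 in WT 2 to 4, and of macrophages and monocytes, at 2.52 and 5.19 to 6.76, were lower there too. The mean of the 12 T cell markers was not, at 10.32 in WT 1 and 9.57 to 10.19 in WT 2 to 4. Even so, 2 of the 12 were lower in WT 1 than in each other WT library. They were Cd4, at 425 CPM in WT 1 and 1337 to 1657 in WT 2 to 4, and Cd28, at 78.0 and 210 to 355. The part of these cell types in the members' values was not tested.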

How the data were processed

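The deposited files hold raw counts, 1 value per gene and library. Per the file headers, the authors ran featureCounts 1.6.2 with paired reads on GENCODE M17 exons of GRCm38.p6. No strand option was set and pairs matching several places were not counted, so overlapping genes and near copies are uncertain. The submitters' processing notes also name FastQC and STAR, with versions not given. RNA was amplified with a SMART-seq v4 kit, per the labels' protocols.

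KO was compared with WT over all genes by edgeR 4.0.16 (R 4.3.3, limma 3.58.1) with TMM scaling, filterByExpr, the quasi-likelihood test and Benjamini-Hochberg adjustment at 0.05, with genotype as the only term. The call rate was checked on simulated counts. These had the same spread for every gene and no library that stood apart, so the check cannot speak for the calls made here. CPM uses TMM-scaled library sizes, from totals of 31939816 to 55784453 counts. Replicates of 1 group were compared over 21 pairs by chi-square, and none lay within sampling noise. Alternatives were other scalings and filters, DESeq2 1.42.0, limma-voom, blocks, library sets and leaving out each library. Protein identities were not computed, and shared 50-base windows of GENCODE M21 transcripts were counted instead, a choice made after seeing the data.

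The members and lists were chosen with earlier results of these data known. Values of every library are given for members that passed, that did not overlap, or that were among the 3 most abundant of a role, for 6 fixed pathway genes, and for up to 4 called genes per pathway list. A further gene named in that rule is not reported here. Ifng, Siglech, RP23-85A8.1 and the members given by range were added after their values were seen.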

Additional observations from a re-analysis of the deposited data

Results flagged for a closer look

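Of 92 groups of 4 or 6 libraries checked, 7 held a library whose gap to its nearest neighbour was a larger share of the group's range than the limit for a single outlying value allows. Chance alone gives about 1 such group in 20. In WT, Stat2 was at 146 CPM in WT 3 and at 25.1 to 44.4 in the other WT libraries. Tyk2 was also highest in WT 3, at 272 CPM beside 54.1 to 62.4. Oas1g was at 18.3 CPM in WT 4 and at 5.59 to 7.27 in the others.

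In KO, 3 of the 4 such values were in replicate 4. Oas2 was at 7.16 CPM there and at 0.374 to 1.53 in the other KO libraries, Mx1 at 10.5 beside 0 to 3.27, and Ifi44 at 0.710 beside 0 to 0.135. Rtp4 was at 40.0 CPM in KO 1 and at 72.5 to 85.9 in the other KO libraries.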

How the results depend on the processing

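No setting tried called a member higher in KO except library numbers 1 to 3 alone, where Oasl2 was (3 KO libraries against WT 1, which is assumed to vary like KO). With 4 WT libraries, of which 1 stood apart, the 2 calls near the threshold depend on the processing and the cause was not tested. Replicate numbers did not pair the libraries: the correlations of same-numbered libraries were 0.29, -0.25, -0.22 and 0.30, and the block changed the calls as given below. Of the named genes' fold changes under the alternatives, 879 kept direction and side of the threshold, 76 lost and 45 gained a call, and 98 reversed. Calls were 2 members lower, 0 higher, 3 without overlap, 1 pathway gene higher and 6 lower in the design reported above. Reversals below are log2 fold changes whose sign turned.

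Under relative log expression size factors the reversed log2 fold changes were Irf9 -0.027, Oas3 -0.0087, Bst2 -0.016. Without scaling factors the values were 0 members lower (of all genes 2.6% lower, 0.436% higher). Scaled to 8 T cell receptor genes the values were 9 members lower, 0 pathway genes higher, 19 pathway genes lower, 9 members without overlap (of all genes 9.76% lower, 0.113% higher, 15.1% without overlap), with reversals of Irf9 -0.65, Oas3 -0.74, Bst2 -0.61, Ifi214 -0.43, Ifnar1 -0.12, Jak1 -0.23. With TMM factors computed without immunoglobulin genes the values were 0 members lower (of all genes 1.57% lower, 0.333% higher), with reversals of Stat2 0.012. Without a filter on low counts the values were 0 members lower (of all genes 1.39% lower, 0.152% higher), with reversals of Stat2 0.017. With a filter of 1 CPM in 4 libraries the values were 1 member lower, 3 pathway genes higher (of all genes 2.74% lower, 0.592% higher), with reversals of Stat2 0.0047. With a replicate block over replicates 1 to 4 the values were 0 members lower, 0 pathway genes higher, 0 pathway genes lower (of all genes 0% lower, 0% higher), with reversals of Ifih1 0.62, Stat2 0.017, Ifit1bl1 0.58, Ifit3b 0.28, Oas3 -0.77, Bst2 -0.077, Ifi208 0.11. With a replicate block by library number (2 and 6) the values were 0 members lower, 0 pathway genes higher, 0 pathway genes lower, 5 members without overlap and a members' median of 0.13 (of all genes 0% lower, 0% higher, 15% without overlap), with reversals of Ddx58 2.56, Ifih1 3.49, Zbp1 0.023, Irf7 0.47, Stat2 0.19, Usp18 0.41, Ifit1bl1 4.43, Ifit3 4.29, Ifit3b 4.01, Oas3 -1.22, Oasl2 4.17, Rsad2 2.54, Ifi208 2.72, Ifi209 2.87, Rtp4 0.13. With the library set as a term the values were 1 member lower (of all genes 2.78% lower, 0.816% higher), with reversals of Ifih1 0.26, Stat2 0.34, Ifit1bl1 0.42, Ifit3b 0.12, Bst2 -0.022, Ifi208 0.32, Ifi214 -0.85. In library numbers 4 to 8 alone the values were 13 pathway genes lower, 15 members without overlap (of all genes 7.18% lower, 0.842% higher, 22% without overlap), with reversals of Irf9 -0.012, Stat2 0.19, Ifi214 -1.88, Ifi27l2a 0.32. In library numbers 1 to 3 alone the values were 1 member higher, 0 members lower, 3 pathway genes higher, 0 pathway genes lower, 12 members without overlap and a members' median of 0.46 (of all genes 0.524% lower, 2.1% higher, 34.7% without overlap), with reversals of Ddx58 6.98, Ifih1 10.68, Irf7 0.25, Stat2 0.78, Usp18 0.46, Ifit1 4.88, Ifit1bl1 11.74, Ifit3 12.26, Ifit3b 10.61, Oas2 3.03, Oasl2 12.07, Bst2 -0.21, Rsad2 6.06, Ifi208 6.04, Ifi209 6.36, Ifi213 1.18. At an adjusted p under 0.01 the values were 0 members lower, 0 pathway genes higher (of all 14214 genes 121 lower, 7 higher). Under DESeq2 the values were 6 members lower, 6 pathway genes higher, 11 pathway genes lower (of all genes 7.22% lower, 4.43% higher), with reversals of Irf9 -0.027, Oas3 -0.0087, Bst2 -0.016. Under limma-voom the values were 5 pathway genes higher (of all genes 4.78% lower, 1.44% higher), with reversals of Ddx58 0.42, Ifih1 1.70, Stat2 0.21, Ifit1bl1 1.94, Ifit3 1.22, Ifit3b 1.23, Oas3 -0.52, Oasl2 1.37, Ifi208 0.86, Ifi209 0.030, Ifi214 -0.16. Under limma-voom with quality weights the values were 14 members lower, 14 pathway genes higher, 33 pathway genes lower (of all genes 19.5% lower, 18% higher), with reversals of Irf9 -0.25, Stat2 0.46, Ifi214 -2.50.

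Leaving out 1 library at a time gave 0 to 7 members lower, 2 to 14 without overlap, 0 to 5 pathway genes higher and 4 to 18 lower, with a members' median of -1.05 to -0.48, with the highest counts, 7, 14, 5 and 18, without WT 1. Members lower were 0 without WT 2, WT 4 or any KO library, where 0.977% to 2.35% of genes were lower. Without WT 3, 1 member was lower, 6 members did not overlap and 4 pathway genes were higher (of all genes 2.8% lower, 2.09% higher, 9.92% without overlap). No pathway gene was higher without KO 1, WT 2 or WT 4. The log2 fold changes that reversed in such a fit ranged as follows: Bst2 -0.071 to 0.27, Ifi214 -0.084 to 0.94, Ifi27l2a -0.64 to 0.12, Ifih1 -0.59 to 0.21, Ifit1bl1 -0.75 to 0.25, Irf7 -0.44 to 0.13, Irf9 -0.23 to 0.31, Oas3 -0.18 to 0.57, Rsad2 -1.19 to 0.099, Stat2 -0.28 to 0.77. Depth limits the low members: 3 counts correspond to 0.0554 to 0.0856 CPM. Ifi44, Ifit1, Ifit2, Ifi214, Mx1 and Rsad2 had KO libraries at or under 3 counts. For Ifih1, Ifit1bl1, Ifit3, Ifit3b, Oasl2 and Ifi209 only WT 1 was at or under 3 counts.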

Other observations

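Socs1, the interferon-induced inhibitor of JAK kinases, went with the library numbers rather than with the genotype, and was singled out after its values were seen. In the libraries numbered 1 to 3 it was at 713, 763 and 504 CPM (KO 1 to 3) and 965 CPM (WT 1). In those numbered 4 to 8 it was at 25.7, 12.9 and 13.2 CPM (KO 4 to 6) and at 8.70, 7.93 and 4.76 CPM (WT 2 to 4).

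Trim30b, a neighbour of Trim30a on chromosome 7, had 0 counts in all 6 KO libraries and 2097 over the WT libraries, at 0.0483, 27.4, 12.7 and 18.5 CPM in WT 1 to 4. It did not pass the filter on low counts and was not tested with all libraries. Without WT 1 it was tested and was lower in KO. It too was chosen after its values were seen.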
